A study of Mus musculus with 6 samples.

Results

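The genes described here are 46 developmental transcription factors of the homeobox and PAX families outside the Hox clusters, and the measurement is the DNA methylation of their CpG positions in stem and progenitor cells of mouse bone marrow. Each gene was taken as its RefSeq extent with 1000 bases added on either side. Its positions were divided into ends, within 1000 bases of either end of the extent, and body, further inside. Only CpG positions read at least 10 times in all 6 libraries were used, and these are called shared positions. The 46 genes held 3325 of the 552338 shared positions, 1549 in ends and 1776 in bodies. A region entered the comparisons with at least 5 shared positions, which left 40 members with ends, 39 with bodies and 34 with both. Pax8 had no shared position and entered no comparison between genotypes or cell types.

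The libraries were made by enhanced reduced representation bisulfite sequencing, which reads CpG-rich fragments and counts unconverted C as methylated. Male C57BL/6 mice aged 7 to 10 months carried VavCre, a Cre recombinase driven in blood cells. Control mice had the genotype IDH1+/+ VavCre+, and their KI littermates had IDH1+/lsl VavCre+, a knock-in allele of the isocitrate dehydrogenase gene. From marrow pooled from 6 mice per group, long-term haematopoietic stem cells (LT-HSC, Lin- Sca+ Kit+ CD150+ CD48-), short-term haematopoietic stem cells (ST-HSC, Lin- Sca+ Kit+ CD150+ CD48+) and multipotent progenitors (MPP, Lin- Sca+ Kit+ CD150-) were sorted. There was 1 library for each genotype and cell type and thus no replicate. The labels do not state if 1 pool of mice supplied all 3 cell types. By the lane numbers in the deposited names, 0 lanes held both genotypes, and an effect of lane cannot be told apart from one of genotype. KI libraries had 3 lane numbers and Control libraries 2, so comparisons of cell types within a genotype may differ in lane as well. Values given by 3 for a genotype follow the order LT-HSC, ST-HSC, MPP. Libraries held 38284759 to 53884467 reads summed over positions, and expression was not measured.

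Homeobox and PAX genes encode DNA-binding proteins that lay out the body axis, brain, eye, kidney, heart and skeleton in the embryo. Most lie in long stretches rich in CpG. In adult cells that do not use them, such stretches are commonly held silent by Polycomb complexes and carry little DNA methylation, whereas CpGs in the bodies of other genes are mostly methylated. IDH1 makes 2-oxoglutarate, which the TET enzymes need to oxidise methylated cytosine. The questions here are whether carriers of the knock-in allele, and progenitors as against stem cells, differ in methylation at these genes.

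The promoter sequences show how dense the readable CpGs were. RefSeq promoters of assembly GRCm38.p6, the build also called mm10, matched 34 members with 44 windows of 300 bases, from 250 before to 50 after an annotated start. The median window of a member held 17.5 CpGs, with an observed to expected ratio of 0.748, against 7 CpGs and 0.384 over all 32851 windows. CCGG, the letters cut by the usual enzyme of reduced representation libraries and identical on both strands, stood in 81.8% of member windows and 52.8% of all windows. At least 1 shared position stood in 40.9% of member windows and 27.0% of all windows. The 250 bases before the start are printed for Six2, Dlx2, Msx1 and Nkx6-2, with every CpG read in all 6 libraries in capitals. They are chr17:85688255-85688504, chr2:71546755-71547004, chr5:37824586-37824835 and chr7:139582798-139583047, all of the minus strand and printed 5′ to 3′.
Six2: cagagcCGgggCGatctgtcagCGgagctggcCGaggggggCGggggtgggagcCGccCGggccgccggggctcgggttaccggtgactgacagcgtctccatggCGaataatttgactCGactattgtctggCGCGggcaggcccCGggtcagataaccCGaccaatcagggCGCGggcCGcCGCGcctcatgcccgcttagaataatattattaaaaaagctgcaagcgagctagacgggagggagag
Dlx2: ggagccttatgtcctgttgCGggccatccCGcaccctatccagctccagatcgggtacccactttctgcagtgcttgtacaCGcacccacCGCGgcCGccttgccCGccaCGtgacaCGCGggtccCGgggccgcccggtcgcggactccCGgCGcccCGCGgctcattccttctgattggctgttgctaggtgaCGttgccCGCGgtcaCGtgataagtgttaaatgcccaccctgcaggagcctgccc
Msx1: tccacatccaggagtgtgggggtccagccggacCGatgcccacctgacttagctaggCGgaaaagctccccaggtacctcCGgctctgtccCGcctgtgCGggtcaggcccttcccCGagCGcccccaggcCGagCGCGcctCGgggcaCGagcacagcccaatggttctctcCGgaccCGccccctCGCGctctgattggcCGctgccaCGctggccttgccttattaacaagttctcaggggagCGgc
Nkx6-2: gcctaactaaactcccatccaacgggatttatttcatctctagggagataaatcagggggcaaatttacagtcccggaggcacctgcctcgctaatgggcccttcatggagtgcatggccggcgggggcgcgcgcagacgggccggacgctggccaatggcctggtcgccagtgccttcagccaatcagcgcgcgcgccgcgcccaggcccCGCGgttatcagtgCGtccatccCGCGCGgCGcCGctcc
In the stretch of Six2, a kidney progenitor factor, 18 of 26 CpGs were read, and the mean level was 3.80%, 1.57% and 3.36% for Control and 3.72%, 4.12% and 4.26% for KI. For Dlx2, a factor of forebrain interneurons, 19 of 24 CpGs were read, at 6.09%, 3.63% and 2.46% for Control and 1.84%, 5.05% and 3.81% for KI. The genotypes overlapped at Dlx2, and at Six2 Control LT-HSC stood above KI LT-HSC. For Msx1, a factor of tooth and skull growth, 19 of 20 CpGs were read, at 6.96%, 3.17% and 4.93% for Control and 1.34%, 3.76% and 2.76% for KI. For Nkx6-2, a factor of oligodendrocytes, 8 of 26 CpGs were read, at 2.13%, 0.367% and 0.284% for Control and 2.89%, 5.11% and 2.29% for KI. These 4 stretches stayed at or under 6.96% in every library. Over the 14 windows of 13 members with at least 5 shared positions, no library exceeded 11.3%. Of the 4 windows with 2 to 4 shared positions, Nkx2-3 reached 40.5%, Lhx9 31.7% and Otx2 17.1%, while Lhx6 stayed at or under 4.17%.

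Methylation at the ends of the members was low in all 6 libraries, and their bodies were far less methylated than those of most genes. Ends are those of the extent and need not hold the promoter. Of 34 members with an annotated promoter, 9 had every annotated start over 1000 bases inside the extent. In these the start fell in the body. Over 40 member ends, the level averaged over the 6 libraries had a median of 5.52%, and 34 lay under 10%. All 13154 gene ends had a median of 3.50%, and 84.4% lay under 10%. Over 39 member bodies the median was 7.85%, and 28 lay under 10%, or 71.8%. All 7560 gene bodies had a median of 50.7%, with 24.6% under 10% and 50.3% over 50%. No member end or body was over 50%. For comparison, bodies of 45 other homeobox genes had a median of 7.27% and those of 35 further developmental factors 6.66%, while 18 factors of blood formation, such as Runx1 and Gata2, stood at 20.4% and 9 Polycomb genes at 28.2%. At ends these 4 lists had medians of 6.20%, 5.65%, 3.17% and 2.77%. The plot of levels by member shows each library.

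**Figure D1:**
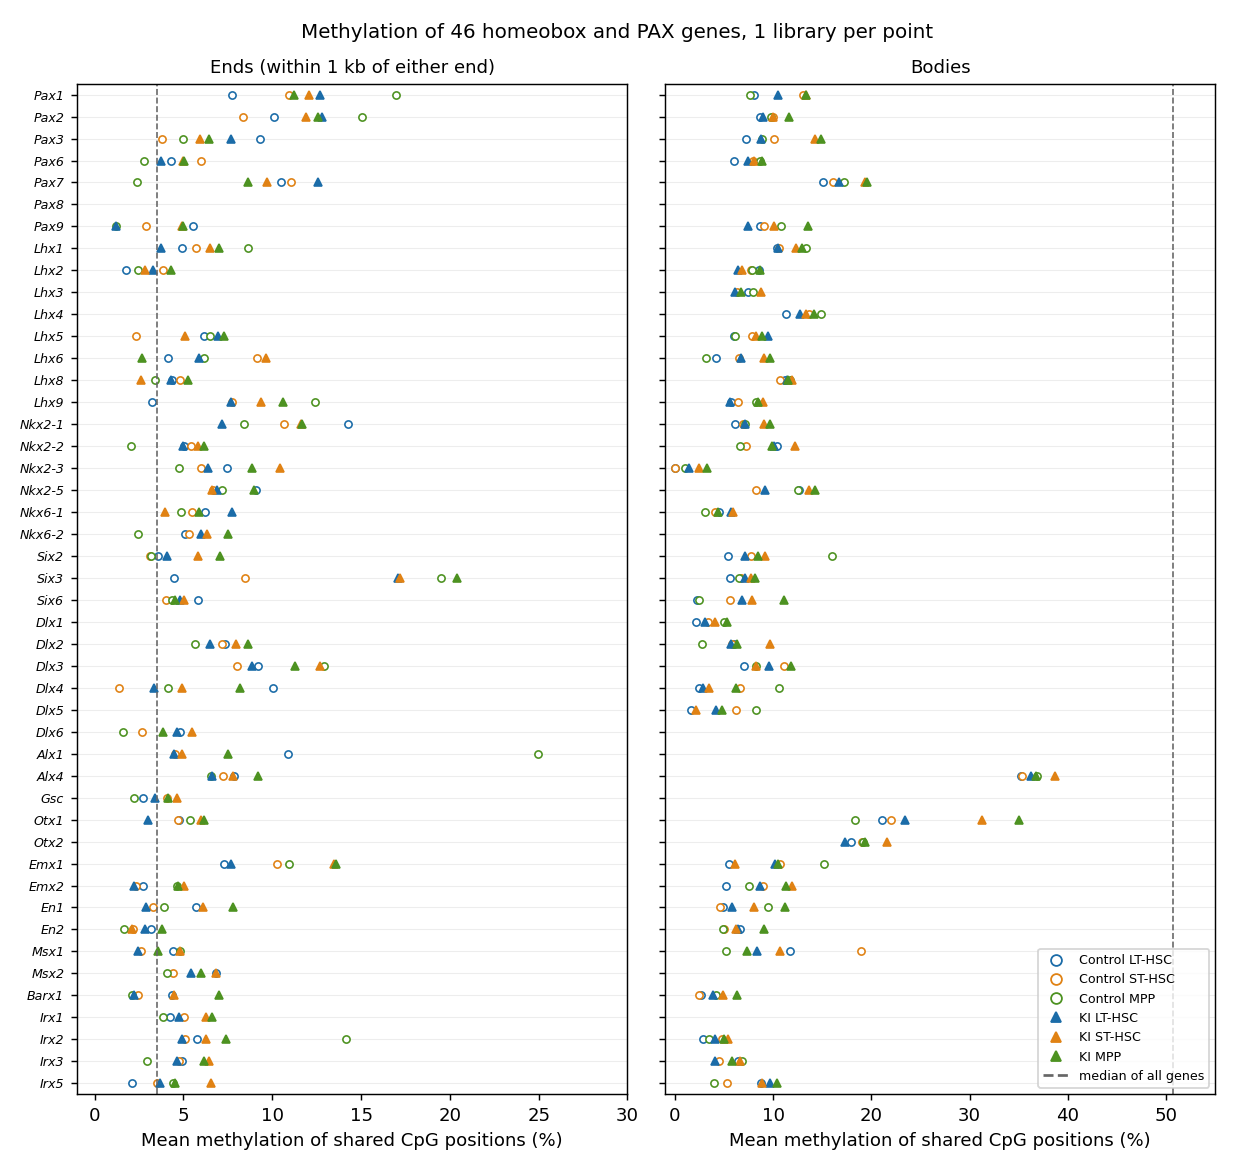
Mean methylation in percent (x axis) of each member (rows) at its ends (left) and in its body (right), with open circles for Control and filled triangles for KI, coloured by cell type; the dashed line is the median of all genes. Rows without points had fewer than 5 shared positions; member bodies all sit to the left of the 50.7% median of all bodies.

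Among the PAX genes, ends ranged from 3.46% at Pax9, a factor of vertebrae and thymus, to 11.9% at Pax1, which acts beside it. Pax1 ends stood at 7.74%, 10.9% and 17.0% for Control and 12.7%, 12.1% and 11.2% for KI. Pax2, a kidney and eye factor, averaged 11.8% at its ends. Control and KI overlapped at both genes. Bodies ranged from 7.85% at Pax6, the eye factor, to 17.3% at Pax7, a factor of muscle stem cells, with Pax3, of neural crest and muscle, at 10.7%.

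The LIM homeobox genes specify neurons, pituitary, kidney and gonad. Their ends ran from 3.08% at Lhx2, an eye and forebrain factor, to 8.49% at Lhx9, a gonad factor. Lhx1, Lhx5, Lhx6 and Lhx8, which act in the early head, hippocampus and forebrain neurons, lay between. Bodies of all 8 were measured and ran from 6.55% at Lhx6 to 13.4% at Lhx4, which with Lhx3 acts in the pituitary.

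The NKX genes direct thyroid and lung (Nkx2-1), pancreas and ventral neural tube (Nkx2-2, Nkx6-1), spleen (Nkx2-3), heart (Nkx2-5) and oligodendrocytes (Nkx6-2). Their ends ran from 4.91% at Nkx2-2 to 10.6% at Nkx2-1. The body of Nkx2-3 was the lowest of all members at 1.36%. Summed over its 17 positions, it had 0 methylated reads of 1136 in Control LT-HSC and 0 of 556 in Control ST-HSC. Taking 3 methylated reads as the limit, these sums allow up to 0.264% and 0.540%, and more where 1 read spans several positions. Control MPP stood at 1.00% and the KI libraries at 1.43%, 2.43% and 3.31%, so the means of the genotypes did not overlap at this very low level. As shares of summed reads they did, at 1.626% for Control MPP and 1.605% for KI LT-HSC.

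The sine oculis-type genes build kidney (Six2), forebrain and eye (Six3) and retina (Six6). Six3 had the highest ends of all members, 14.5%, while Six2 and Six6 had 4.47% and 4.75%. In their bodies the 3 genes were alike, between 6.05% and 8.98%. The DLX genes pattern forebrain (Dlx1, Dlx2), skin and teeth (Dlx3), branchial arches (Dlx4), and jaw and limb (Dlx5, Dlx6), and their bodies ran from 3.84% at Dlx1 to 9.34% at Dlx3.

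The paired-type genes held the 3 highest bodies, all above the next member, Pax7. The body of Alx4, a skull and limb factor, averaged 36.5%, and that of Otx1, a forebrain factor, 25.2%. Otx2, which is required for the head, averaged 19.1%. The Alx4 mean over positions stood at 35.3%, 35.3% and 36.8% for Control and 36.3%, 38.7% and 36.7% for KI, within 3.41 points in all. As a share of summed reads, which gives deeper positions more weight, KI minus Control at Alx4 was -6.85, 13.6 and -8.37 points, so the weighting changed the sign in LT-HSC and the size in the other two. Ends of Alx1, Alx4, Gsc (a factor of the gastrula organizer) and Otx1 ran from 3.54% to 9.54%.

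The cortex factors Emx1 and Emx2 and the midbrain factors En1 and En2 included the lowest end of all members, En2 at 2.63%, and the much higher Emx1 at 10.5%. En2 had 3.19%, 2.19% and 1.67% for Control and 2.84%, 2.09% and 3.82% for KI. The tooth and skull genes Msx1 and Msx2 and the stomach factor Barx1 had ends of 3.76% to 5.60%, and the Barx1 body, at 4.08%, was the third lowest. The Iroquois genes Irx1, Irx2, Irx3 and Irx5, which pattern heart and neural tissue, had ends of 4.12% to 7.27% and bodies of 4.30% to 7.85%.

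By distance from the annotated start, levels showed no steady order, and each distance held other genes. In the first 500 bases after the start, 473 positions of 26 members averaged 4.25% to 6.83% in the 6 libraries. Between 2000 and 2500 bases, 156 positions of 13 members averaged 3.53% to 6.18%. Between 5500 and 6000 bases inside, 103 positions of 6 members averaged 10.3% to 15.4%. In windows of 1000 bases, 135 of 179 member windows lay under 10% and 4 over 50%, against 66.4% and 25.0% of all windows. The 4 were body windows of Pax7, Lhx4, Lhx8 and Alx4, at 97.6%, 96.7%, 91.2% and 86.3%. Highly methylated stretches were therefore present inside these 4 genes, away from their ends.

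The libraries differed most in how many positions had no methylated read at all. Of 1549 end positions, 66.6%, 62.0% and 76.8% were at 0% for Control, against 49.3%, 49.5% and 45.8% for KI. In bodies the shares were 62.0%, 47.3% and 66.7% for Control and 40.8%, 38.7% and 33.5% for KI. Over all shared positions they were 59.97%, 56.2% and 65.0% for Control and 52.3%, 51.1% and 46.5% for KI. In ends, bodies and all positions, every Control library had more positions at 0% than every KI library. The median depth of end positions was 53, 38 and 44 reads for Control and 72, 34 and 53 for KI, at which 0 methylated reads allows up to 5.66%, 7.89%, 6.82%, 4.17%, 8.82% and 5.66% at a single position. The mean over end positions was 5.53%, 4.96% and 5.31% for Control and 5.14%, 6.40% and 6.85% for KI, so the means overlapped where the shares at 0% did not. Control MPP combined the most positions at 0% with the most over 50%, 2.26% of its end positions against 0.452% to 1.03% in the other 5 libraries. Intervals and limits on reads cover at most counting error, since the files mark no molecular identifiers. Where reads are summed over positions, a read that spans several CpGs counts at each of them. Intervals, limits and Fisher p-values from such sums take these as separate reads and are thus too narrow or too low.

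**Figure D2:**
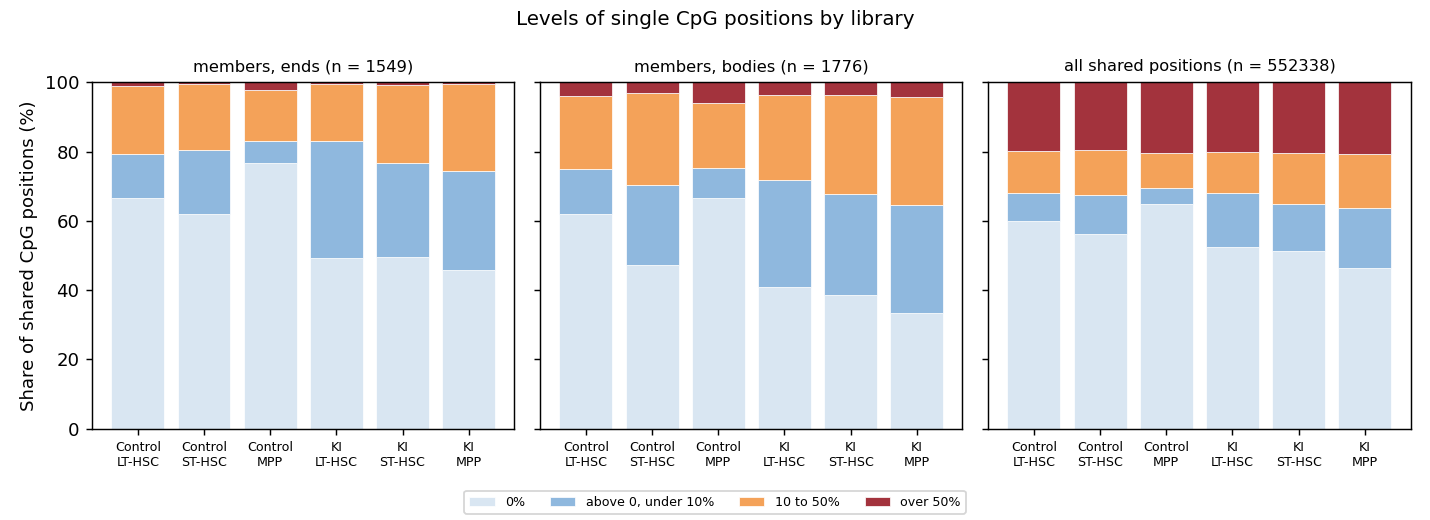
Share of shared CpG positions (y axis, percent) at 0%, above 0 and under 10%, 10 to 50% and over 50% in each library (x axis), for member ends, member bodies and all shared positions. The palest block, positions at 0%, is smaller in each KI library than in each Control library.

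Between genotypes, member ends were about level in LT-HSC and somewhat higher in KI in ST-HSC and MPP, as was the case over all genes. The median of KI minus Control over 40 member ends was -0.354 percentage points for LT-HSC, 1.27 for ST-HSC and 1.88 for MPP, beside -0.145, 0.613 and 1.24 over all gene ends. KI stood above Control at 15, 33 and 31 of 40 member ends, or 37.5%, 82.5% and 77.5%, beside 46.05%, 67.0% and 73.4% of all ends. In bodies the medians were 1.02, 1.76 and 1.73 points, beside 0.28, 1.15 and 1.22. The plot of differences shows that most members differed by less than 5 points.

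**Figure D3:**
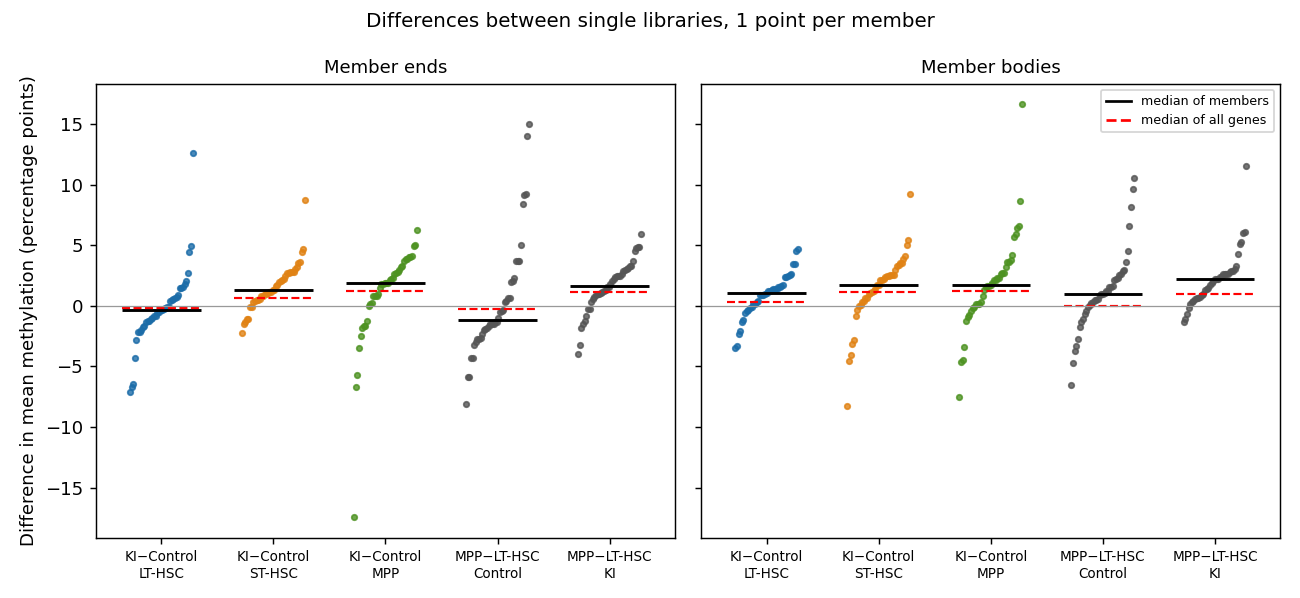
Difference in mean methylation in percentage points (y axis) for each member end (left) and body (right) in the 5 comparisons between libraries (x axis), with points ordered by size; black lines are medians of members and red dashed lines medians of all genes. Six3 ends stand apart in LT-HSC and Control, Alx1 ends in MPP, and Otx1 bodies in MPP and KI.

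KI was above Control in all 3 cell types at 8 of 40 member ends, or 20%, where 23.3% of all gene ends did so, and below in all 3 at 0, where 5.02% did. The 8 were Six3, Six2, Nkx6-2, Lhx5, Emx1, Irx5, Gsc and Irx1. In bodies, 18 of 39 were above in all 3 cell types, or 46.2%, beside 28% of all bodies, and 0 were below, beside 5.86%. Centred on the median of all genes, the counts were 4 ends and 12 bodies, beside 14.2% of all ends and 17.0% of all bodies. The end counts of members lay under the background and the body counts above it, with no test of either. KI was above Control in LT-HSC at 71.8% of member, 51.1% of other homeobox and 60% of other developmental factor bodies, beside 54.6% of all. In ST-HSC these shares were 79.5%, 73.3% and 85.7%, beside 69.2%, and in MPP 74.4%, 75.6% and 80%, beside 65.6%. The lists most like the members thus also stood above all bodies in ST-HSC and MPP. From ST-HSC and MPP alone, 24 of 40 ends were above in KI, beside 49.8% of all ends.

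Few members passed a call between single libraries, which required a Fisher exact test on summed reads with p, once adjusted, under 0.01, and means at least 10 points apart. Such a call compares 2 libraries and covers at most counting error, since a read that spans several CpGs counts at each. In LT-HSC, 1 of 40 member ends was higher in KI, that of Six3, where 1.12% of all gene ends were called higher. In ST-HSC and MPP, 0 member ends were called, where 1.84% and 2.09% were called higher. In bodies, 1 of 39 was called higher in KI in MPP, that of Otx1, where 5.15% of all bodies were, and 0 in LT-HSC and ST-HSC, where 3.19% and 4.78% were. No member was called lower. Of all ends, 0.563%, 0.22% and 0.601% were called lower in LT-HSC, ST-HSC and MPP, and of all bodies 1.2%, 0.344% and 1.07%. The members' shares were thus near or under the background.

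Six3 ends rose in KI in LT-HSC. Over 9 positions the level was 4.48%, 8.46% and 19.5% for Control and 17.1%, 17.2% and 20.4% for KI. Control LT-HSC and ST-HSC were low, and the other 4 libraries lay together. As a share of reads summed over positions, Control LT-HSC had 4.41% (95% Wilson interval 3.28 to 5.91, sum 952). KI LT-HSC had 15.1% (12.7 to 17.7, sum 797). The forward positions chr17:85625266 and chr17:85625291 each had 79 reads in Control LT-HSC, so the sums may count the same reads again. The difference in means was 12.6 points with a Fisher exact adjusted p of 6.87e-13. It was 8.74 points in ST-HSC and 0.856 in MPP, and neither was called. The mean of the 3 differences was 7.40 ± 5.98 points (SD over 3 cell types). In the limma fit over the 6 libraries the genotype difference was 1.10 (SE 0.39, as a log2 ratio of methylated over unmethylated reads), and the adjusted p was 0.791.

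The positions behind the Six3 value lie close together. Of the 9, 7 stand between chr17:85625266 and chr17:85625332, inside the gene extent (chr17:85613608-85626191, mm10). Six3 is on the plus strand, so these positions lie past the annotated start, near the 3′ end of the extent. The start itself is 5357 bases from that end, and its promoter window held 0 shared positions, so the value says nothing of the promoter. At the position with the largest difference, chr17:85625291, Control had 5.06%, 27.3% and 17.3% and KI 48.2%, 27.2% and 25.3%. On the forward strand alone the LT-HSC difference was 20.5 points and on the reverse strand 8.65 points, so both strands pointed the same way. The other 2 positions lie near the opposite end of the gene, and there KI LT-HSC was the lower, 0% against 3.06% and 9.23% against 17.8%. With the reach set to 2000 bases, 36 positions gave a difference of 6.18 points, under the 10 required. With every position set to 10 reads the Fisher exact adjusted p was 0.317, but that setting leaves few reads to a region of 9 positions.

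Otx1 bodies rose in KI in MPP. The 8 positions stand between chr11:22000544 and chr11:22000633, 7 of them on the forward strand. The level was 21.1%, 22.0% and 18.4% for Control and 23.5%, 31.3% and 35.0% for KI, and the genotypes did not overlap. The MPP difference was 16.6 points, with a Fisher exact adjusted p of 5.71e-11. As a share of reads summed over positions, the level was 10.7% in Control MPP (95% Wilson interval 7.53 to 14.9, sum 272). In KI MPP it was 35.9% (30.2 to 42.0, sum 251). With 8 positions within 90 bases, these sums may count the same reads several times. The limma difference was 1.05 (SE 0.40, log2 ratio) with an adjusted p of 0.620. At chr11:22000552 Control MPP stood at 23.5% and KI MPP at 71.4%, while at chr11:22000630 the order was the other way, 62.5% and 28.2%, with 16 reads in Control MPP. Neighbouring positions within 90 bases thus differed in direction, and 7 of 8 were higher in KI in MPP. With a reach of 500 bases the body held 20 positions and the difference was 7.92 points, under the 10 required. With every position set to 10 reads the Fisher exact adjusted p was 0.221, but that setting leaves few reads to a region of 8 positions.

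**Figure D4:**
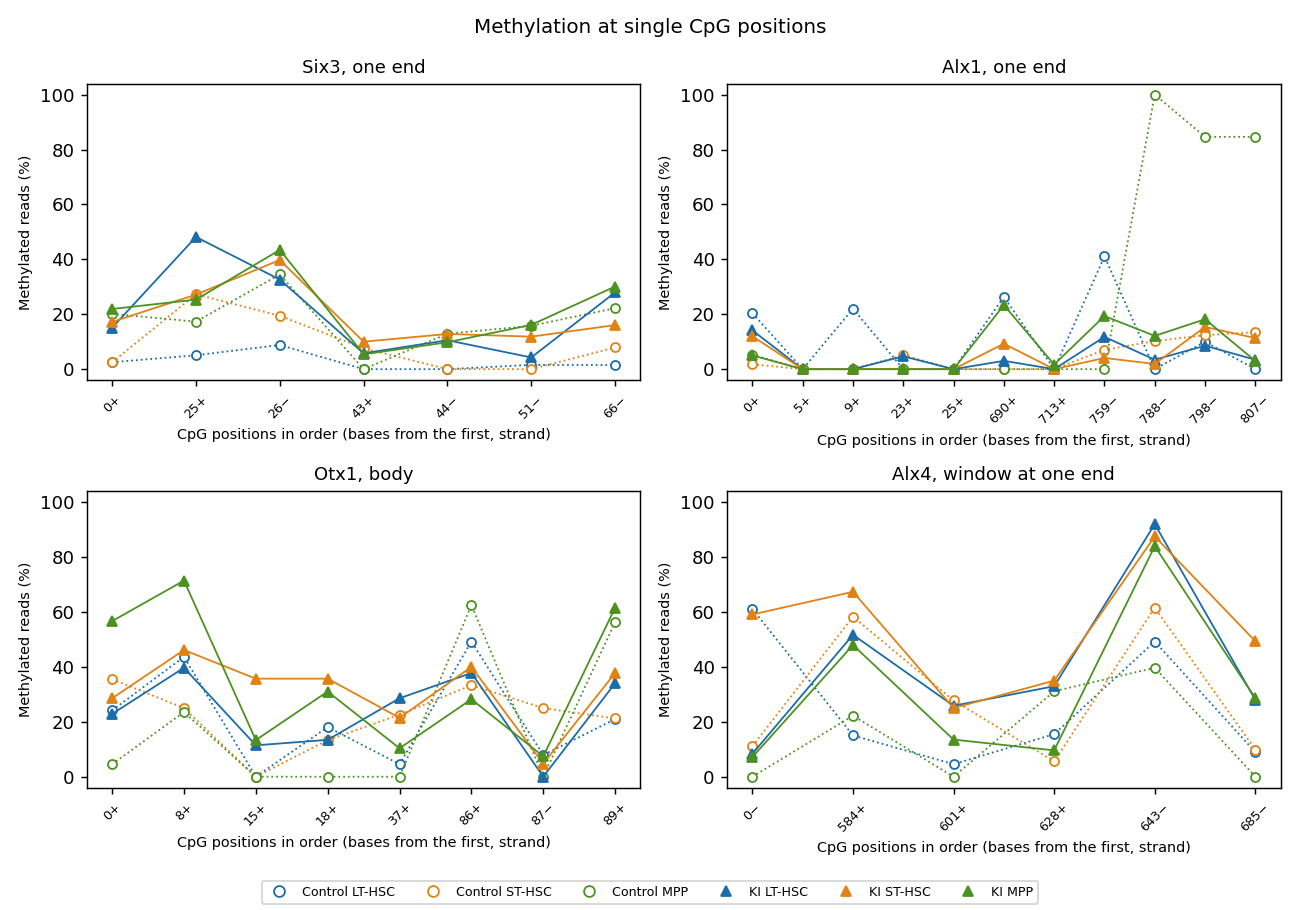
Methylated reads in percent (y axis) at single CpG positions in order along the genome (x axis, labelled with bases from the first position shown and + or − for the strand), with open circles and dotted lines for Control and filled triangles and solid lines for KI. At the 7 neighbouring positions shown of the Six3 end the Control LT-HSC line stays under 10%; at the Alx1 end 3 reverse strand positions of Control MPP stand at 84.6% to 100%.

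The next largest rises at ends among the 8 in 1 direction were in Six2 and Nkx6-2. Six2 ends, with 93 positions, had 3.57%, 3.10% and 3.20% for Control and 4.10%, 5.85% and 7.03% for KI, a mean difference of 2.37 ± 1.68 points (SD over 3 cell types). Nkx6-2 ends, with 58 positions, had 5.12%, 5.31% and 2.44% for Control and 5.98%, 6.34% and 7.5% for KI, a mean of 2.32 ± 2.37 points. The means did not overlap between genotypes at either gene. As shares of summed reads they did, since Control LT-HSC stood above KI LT-HSC at Six2, 5.02% against 4.23%, and at Nkx6-2, 6.21% against 6.19%. Most end positions of both also belong to a neighbouring non-coding RNA gene, CJ186046Rik with 82 of the 93 at Six2 and Gm33031 with all 58 at Nkx6-2.

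In bodies, Otx1 was followed by Six6 and Pax3. The Six6 body, with 11 positions, had 2.30%, 5.64% and 2.51% for Control and 6.85%, 7.88% and 11.1% for KI, a mean difference of 5.14 ± 3.23 points. The Pax3 body, with 40 positions, had 7.22%, 10.1% and 8.88% for Control and 8.83%, 14.2% and 14.8% for KI, a mean of 3.91 ± 2.19 points. Six6 did not overlap between genotypes, whereas Pax3 in KI LT-HSC lay within the Control values. Their limma adjusted p-values were 0.620 and 0.666.

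Alx1, a factor of the facial skeleton named after its values were seen, had the largest negative difference of any member, and it came from 1 library. Its ends, with 11 positions, stood at 10.9%, 4.55% and 25.0% for Control and 4.46%, 4.90% and 7.51% for KI. The MPP difference of -17.4 points was not called, with a Fisher exact adjusted p of 0.0627. On the forward strand it was 3.54 points and on the reverse strand -54.2. In Control MPP 3 of the 4 reverse positions were at 100%, 84.6% and 84.6%, on 13 reads each, and 1 at 0% on 11 reads, where the other 5 libraries did not exceed 18.2% at those 3. Restricted to 500 bases around the ends, 6 positions gave -31.9 points and a call, with an adjusted p of 0.00172.

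The limma fit, which takes its spread from the 6 libraries with cell type as a block, called 0 members in either region. For ends, 1 of 40 members had an unadjusted p under 0.05, beside 6.22% of all gene ends, of which 1 in 13154, or 0.0076%, passed adjustment. For bodies 3 of 39 did, beside 7.39%, and 0 of 7560 passed adjustment. The lowest adjusted p was 0.791 at ends, for Six3, and 0.497 in bodies, for Nkx2-3. At the Nkx2-3 body the KI levels stayed under 4%.

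Of the 179 member windows of 1000 bases, 1 was at least 10 points higher in KI in all 3 cell types, where 0.896% of all windows were, and 0 were lower, where 0.0517% were. It is chr2:93641001-93642000, which lies beside the end of Alx4 (chr2:93642434-93681341), and all 6 of its positions lie outside the extent. A window was counted for a member where any of it lay within 1000 bases of the extent. The window had 25.7%, 29.0% and 15.5% for Control and 39.8%, 53.9% and 31.8% for KI. The genotypes did not overlap, with differences of 14.1, 24.9 and 16.3 points. Of the 6 positions, chr2:93641213 lies further than 1000 bases from the extent, with 61.1% in Control LT-HSC and 8.33% in KI LT-HSC on 18 and 24 reads. Without it, an alternative chosen after seeing the data, the differences were 27.4, 20.2 and 18.1 points. At chr2:93641856 Control had 49.2%, 61.5% and 39.7% and KI 92.0%, 87.5% and 84.0%. At chr2:93641841 Control MPP was the higher, 31.1% against 9.59%, and at chr2:93641814 Control ST-HSC, 27.8% against 25%. The limma adjusted p of the window was 0.595. Over all member windows 0 passed adjustment, where 0.00796% of all windows did, and 13 had an unadjusted p under 0.05, or 7.26%, beside 6.99% of all windows. The next window, which holds the end of the extent and 37 positions, averaged 3.18% and differed by -0.940, -1.58 and 1.43 points.

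Between cell types, MPP were compared with LT-HSC within each genotype, with ST-HSC beside them. The medians over member ends had opposite signs, -1.17 points for Control and 1.68 for KI, beside -0.228 and 1.19 over all gene ends. In bodies both were positive, 1.00 and 2.20 points, beside 0.00738 and 0.989. MPP stood above LT-HSC in both genotypes at 13 of 40 ends, or 32.5%, beside 35.7% of all ends, and below at 5, or 12.5%, beside 12.1%. In bodies it stood above at 27 of 39, or 69.2%, beside 35.5%, and below at 3, or 7.69%, beside 16.4%. Centred on the median of all genes the body count was 20, beside 27.1%. In KI alone, MPP was above LT-HSC at 89.7% of member, 82.2% of other homeobox and 80% of other developmental factor bodies, beside 67.4% of all. In Control these shares were 71.8%, 57.8% and 40%, beside 50.1%. The 3 lower bodies were Nkx2-2, Msx1 and Nkx6-1.

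A steady order from LT-HSC through ST-HSC to MPP in both genotypes was seen at 4 of 40 ends, Lhx9, Emx1, Lhx1 and Six3, beside 6.74% of all ends. In bodies 8 of 39 did so, Lhx4, Dlx1, Pax6, Pax7, Lhx1, Dlx4, Nkx2-1 and Pax9, beside 7.47%. The opposite order was seen at 0 ends, beside 1.36%, and in 0 bodies, beside 2.21%. The Lhx9 end, with 11 positions, had 3.22%, 7.72% and 12.4% for Control and 7.68%, 9.34% and 10.6% for KI. The Dlx1 body, with 20 positions, had 2.15%, 3.42% and 5.002% for Control and 3.06%, 4.10% and 5.28% for KI, so its steps were alike in both genotypes.

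Of the members, 3 were called between cell types, each in 1 genotype. Six3 ends were higher in Control MPP than in Control LT-HSC, by 15.04 points with a Fisher exact adjusted p of 3.25e-16, where 1.82% of all ends were called higher. This call and the genotype call at Six3 share the Control LT-HSC library and its low value. The Otx1 body was higher in KI MPP than in KI LT-HSC by 11.5 points, with an adjusted p of 0.00133, where 3.74% of all bodies were called higher. It shares the KI MPP library with the genotype call. With every position set to 10 reads its Fisher exact adjusted p was 0.906, but that setting leaves few reads to its 8 positions. The Six2 body was higher in Control MPP than in Control LT-HSC by 10.5 points, with an adjusted p of 3.71e-17, where 4.23% were called higher. In KI 0 member ends were called higher, where 1.43% were. No member was called lower in MPP, where 0.973% of ends and 3.11% of bodies were in Control, and 0.213% and 0.794% in KI.

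The Six2 body, with 44 positions, had 5.42%, 7.72% and 16.0% for Control and 7.16%, 9.14% and 8.45% for KI, so that Control MPP alone stood apart. On the reverse strand the Control difference was 15.3 points and on the forward strand 4.24. The highest reverse position of Control MPP, chr17:85680887, had 75.0% on 12 reads. At least 20 reads per position left 35 positions and a difference of 6.81 points, under the 10 required, with a Fisher exact adjusted p of 7.51e-12. As a share of summed reads the difference was 7.33 points. Control MPP was thus the library that stood apart at both Six2 and Alx1. At Six2, better-read positions were also high in Control MPP. It had 58.8% on 51 reads at chr17:85684252 and 47.8% on 69 reads at chr17:85681001, against 26.5% and 0% in Control LT-HSC. At chr17:85681074 the order was the other way, 22.8% on 92 reads against 38.6%.

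The limma fit over both genotypes called 0 members for MPP against LT-HSC, with lowest adjusted p-values of 0.548 at ends and 0.416 in bodies. An unadjusted p under 0.05 was reached at 5 of 40 ends, beside 7.47% of all ends, by Lhx9, Dlx6, Six3, Irx2 and Lhx1. It was reached in 2 of 39 bodies, beside 10.6%, by En1 and Lhx8. Dlx6 was lower in MPP and the other 4 ends were higher. No member window was at least 10 points apart in 1 direction in both genotypes, where 1.41% of all windows were higher and 0.362% lower.

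The strands of a CpG are read from separate molecules in a bisulfite library, and their disagreement includes the counting error of each. At 469 member CpGs read on both strands, the strands differed by 5.19 to 6.81 points on average, depending on the library, most in Control MPP. At ends with at least 5 positions per strand, the median gap between the strands' KI minus Control values was 1.64, 2.23 and 2.64 points in LT-HSC, ST-HSC and MPP. The median absolute difference of the members, averaged over both strands, was 1.24, 1.50 and 2.23 points. Both strands were higher in KI at 8, 17 and 18 of 34 ends and both lower at 16, 3 and 4. In bodies both were higher in 14, 21 and 16 of 31 and both lower in 3, 2 and 3. In LT-HSC more ends were thus lower than higher in KI on both strands.

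**Figure D5:**
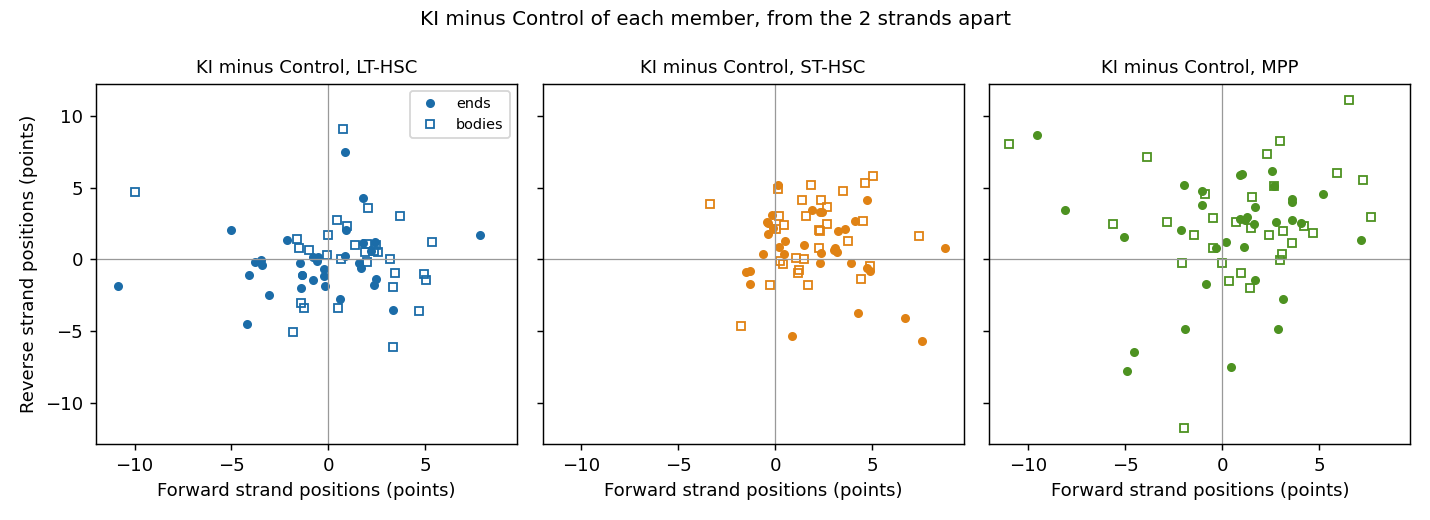
KI minus Control in percentage points from reverse strand positions (y axis) against forward strand positions (x axis), 1 panel per cell type, for members with at least 5 positions on each strand; filled circles are ends and open squares bodies. Points in the upper right are higher in KI on both strands, 17 of 34 ends and 21 of 31 bodies in ST-HSC.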

How the data were processed

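The authors deposited, per the file headers, 1 file per library with a position, strand, coverage as a count of reads, and the percent of those reads that carried C or T. Per the submitters' processing notes, the tools were Bismark 0.10.0, SAMtools 1.0 and methylKit 0.9.1, and the build mm10. Settings, and whether duplicate reads were removed: not given in the sources used here. Coverage times percent gave whole methylated reads at 100% of positions, within 0.01% of the coverage.

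Levels are unweighted means of shared positions, both strands kept apart. Fisher exact tests (own code in Python 3.11.15, two-sided) used summed reads, with Benjamini-Hochberg adjustment over all genes. The limma 3.58.1 fit (R 4.3.3) used log2((methylated + 1)/(unmethylated + 1)) with cell type and genotype as terms and a variance trend, called at an adjusted p under 0.05. It treats the 3 cell types as repeats of a genotype. Scripts were tested on simulated data. Extents came from a RefSeq table of GRCm38.p6; 21 members share end positions with other genes. Exons and introns were not analysed here.

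The members and lists were chosen with earlier results of these data known. Values were given for called members, the 3 highest and lowest levels, the 3 largest rises and falls in 1 direction in all 3 cell types, and members with recurring windows. Values of other members stand as family ranges, examples or lowest p-values chosen after they were seen. Lists of stem cell and other marrow markers were not used to check the sort, since methylation does not measure expression: ends of 3 of the 8 and 1 of the 10 genes were tested, with medians of 2.11% and 2.28%. Coverage, positions, weighting, thresholds, reach, strands and cell types were varied.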

Additional observations from a re-analysis of the deposited data

Results flagged for a closer look

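Over member ends, KI minus Control had a median of -0.354 points in LT-HSC and was positive in ST-HSC (1.27 points) and MPP (1.88 points). All gene ends went the same way, at -0.145, 0.613 and 1.24 points. The difference between cell types was not tested.

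The median of MPP minus LT-HSC over member ends was -1.17 points in Control and 1.68 points in KI, so the sign differed between genotypes. All gene ends had -0.228 and 1.19 points. The difference between genotypes was not tested, and the libraries are the same as in the first pattern.

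The Otx1 body went down from LT-HSC to MPP in Control, by -2.71 points, and up in KI, by 11.5 points. It rests on 8 positions within 90 bases, and the difference was not tested.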

How the results depend on the processing

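Which members were called depended on the settings, and counts are given beside the share of all genes called under the same setting. Requiring 10 positions per region left 0 members for Six3 ends in LT-HSC (0.655% of all ends) and in Control (1.15%) and 0 for the Otx1 body in MPP (3.99% of all bodies) and in KI (3.08%), since these regions hold fewer. With every position set to 10 reads the same 4 calls went to 0, beside 0.190%, 0.639%, 1.24% and 0.992%, while the Six2 body was still called. That setting leaves fewer reads to regions with fewer positions, 9 at Six3 and 8 at Otx1 against 44 at Six2. At least 20 points left 0 of 5 calls, beside 0.312% to 2.21%. At least 5 points gave 3, 1 and 4 ends in LT-HSC, ST-HSC and MPP (2, 0 and 2 of them lower in KI), 6 ends for MPP against LT-HSC in Control (2 lower), and in bodies 1 in ST-HSC, 7 in MPP (1 lower), 3 in Control and 5 in KI, beside 4.68% to 17.0%. At least 20 reads gave 2 ends in Control, Irx2 and Six3 (2.06%), and 0 bodies in KI (4.03%). There the 1 body in MPP was Pax3 (5.57%), since Otx1 had too few positions, and the 1 body in Control was Msx1, lower in MPP, in place of Six2 (6.40%). No minimum of positions gave 2 ends in Control, Dlx5 and Six3 (5.82%). The share of summed reads gave 2 ends in Control, Irx2 and Six3 (4.68%), and 1 body in ST-HSC, Alx4 (9.03%), and the 1 body in Control was Emx1 in place of Six2 (15.6%). A reach of 500 bases gave 0 ends in LT-HSC (1.54%), 1 in MPP, Alx1, lower in KI (2.51%), 2 in Control, Pax1 and Alx1 (2.69%), and 0 bodies in MPP (4.90%), and the 1 body in Control was Gsc, lower in MPP (5.79%). A reach of 2000 bases gave 0 ends in LT-HSC (1.91%), Dlx5 in place of Six3 in Control (3.37%), and in bodies 1 in ST-HSC, Nkx2-5 (5.45%), Emx1, lower in KI, in place of Otx1 in MPP (6.33%), 3 in Control, Emx1, Dlx4 and Six2 (7.77%), and 0 in KI (4.62%). Recurring member windows numbered 0 with 10 positions, 2 at 5 points and 0 at 20 points. Ends above Control in all 3 cell types numbered 4 when centred, 4 from the forward strand, 5 from the reverse strand and 24 without LT-HSC. Bodies with MPP above LT-HSC in both genotypes numbered 15 of 31 on the reverse strand, beside 33.7% of all bodies. These direction counts and their alternatives were chosen after seeing the data. The other 107 counts changed by at most 1.5 times, though not always with the same members, and the limma fits called 0 members under each alternative run. The causes were not tested. The genotype fit pairs Control and KI within a cell type, and without that block it also called 0 members; the labels give no replicate numbers to pair by. Median depth was 34 to 72 reads at member end positions and 37 to 68 in bodies. With this depth and 1 library per group, differences of a few points at 1 member could not be told from error between libraries.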

Other observations

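Pax8, a thyroid and kidney factor, was read at 9 to 16 positions per library but at none in all 6. At positions read in both genotypes of a cell type, it stood at 52.6% for Control and 37.5% for KI LT-HSC (8 positions), 53.3% and 53.9% in ST-HSC (11 positions), and 74.8% and 76.3% in MPP (7 positions). These positions differ between cell types and were not tested. Each value was above 36.5%, the level of Alx4, the highest member body over shared positions.

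The end of Pax7 had 10.5%, 11.1% and 2.40% for Control and 12.6%, 9.69% and 8.64% for KI, the only member end that was over 5 points lower in MPP than in LT-HSC in Control and lower in KI as well.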
